A study of Mus musculus with 28 samples.

Results

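The comparison was that of chromatin states in wild-type (WT) mouse embryonic fibroblasts, primary cells of strain 129s2 taken at 14.5 days and used at passages 3 to 4, between the treatments labelled NT and GS. The labels expand neither abbreviation, and the title of the series concerns glucose starvation. It rests on 10 of the 28 samples of the series: 8 ChIP libraries, 2 per treatment against H3K27me3 and 2 per treatment against macroH2A1.1 (mH2A1 in the sample titles), and 2 paired-end inputs. Chromatin was fixed with formaldehyde and taken from whole-cell extracts, and whether replicates came from separate embryos or cultures is not said. The libraries of a treatment are tied by their labels to a single deposited segmentation, so the members compared are WT-NT and WT-GS, both without the SirT7 deletion that the KO cells of the series carry. Each segmentation gives 1 of 4 states, U1 to U4, to every bin of 200 bp. All 12361703 bins of chromosomes 1 to 19 (2472 Mb) were compared, in mm9 coordinates counted from 1.

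H3K27me3 is the histone mark of Polycomb repressive complex 2 and covers silent developmental genes in broad domains. MacroH2A1.1 is a splice form of a histone H2A variant with a large globular macro domain, which binds ADP-ribose and its derivatives, and it is found mostly in broad, lowly transcribed regions. The labels give U1 to U4 no meaning, and which mark is high in which state was not analysed here. U1 includes sequence that can hold no reads, since 0 of the bins in the unassembled initial 3 Mb of the chromosomes had another state in WT-NT or WT-GS. U2, U3 and U4 together are called marked sequence here. In WT-NT, U2 lay in segments with a median of 2600.0 bp, U3 in segments with a median of 1200.0 bp and U4 in segments with a median of 200 bp. Single bins were 79110 of the 134953 U4 segments and held 30.2% of U4 sequence.

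With 1 segmentation per treatment there is no replicate error, and no test of a difference was possible. All values are descriptions of these segmentations, depth is unknown, and spread over the 19 chromosomes describes position along the genome only. A difference in the cells and a difference in how 2 sets of libraries were segmented cannot be told apart. For scale, WT-NT and WT-GS gave different states to 9.60% of bins (237 Mb), and KO-NT and KO-GS to 10.8%. The genotypes differed at 11.05% of bins in NT and 9.85% in GS, in comparisons that share the WT segmentations with this one.

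Most of the exchange in WT was between U1 and U2, and it ran both ways. U1 became U2 over 74.4 Mb and U2 became U1 over 63.9 Mb, together 58.3% of all sequence with another state, with more U1 to U2 on 15 of 19 chromosomes. Over all exchanges, those with U3 and U4 included, U2 gained 94.4 Mb and lost 91.6 Mb, a net difference of 2.77 Mb or 0.112 percentage points, and it was higher in GS on 10 chromosomes and lower on 9. That net difference was below its spread over chromosomes (SD 0.464). The net difference was -0.0501 once all segments shorter than 1 kb had taken the state of the preceding segment of 1 kb or more. Its direction therefore depends on that choice, a rule that carries states in 1 direction along the chromosome. U1 went from 69.4 to 68.99%, lower in GS on 16 of 19 chromosomes.

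The exchange of U3 with the other marked states was less balanced. U2 became U3 over 21.6 Mb and U3 became U2 over 14.8 Mb, with more U2 to U3 on 19 of 19 chromosomes. U4 became U3 over 18.1 Mb and U3 became U4 over 7.39 Mb, again with more U4 to U3 on 19 of 19. The flows between U3 and U4 depended on short segments. With segments under 1 kb relabelled by the same rule, U4 to U3 went from 0.733 to 0.341% of bins and U3 to U4 from 0.299 to 0.0902%. U2 became U4 over 6.07 Mb and U4 became U2 over 5.19 Mb, closer to balance, with more U2 to U4 on 17 of 19 chromosomes. Between U1 and U3 the flows were nearly equal, at 12.1 Mb from U1 to U3 and 12.2 Mb from U3 to U1. As a result U3 covered 7.70% in NT and 8.40% in GS, and U4 covered 2.12 and 1.71%. The net change of U3 lay between 0.323 and 1.47 percentage points on single chromosomes, and that of U4 between -0.715 and -0.179, so neither crossed 0 on any autosome. Both extremes away from 0 were on chromosome 11.

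**Figure D1:**
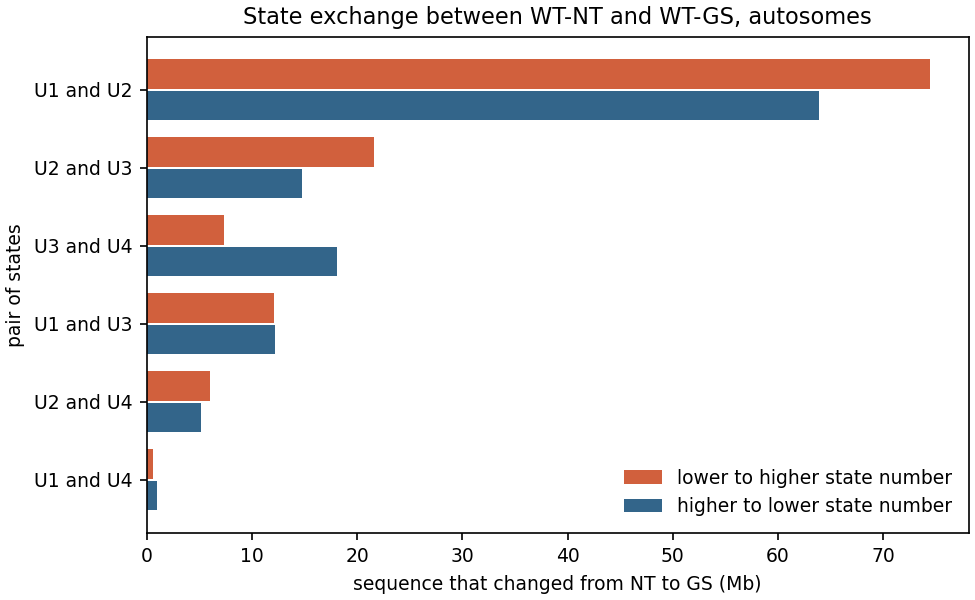
Sequence (Mb, horizontal axis) with different states in WT-NT and WT-GS, by pair of states (vertical axis), with 1 bar for each direction. U1 and U2 exchanged 74.4 and 63.9 Mb, while U4 to U3 (18.1 Mb) exceeded U3 to U4 (7.39 Mb).

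**Figure D2:**
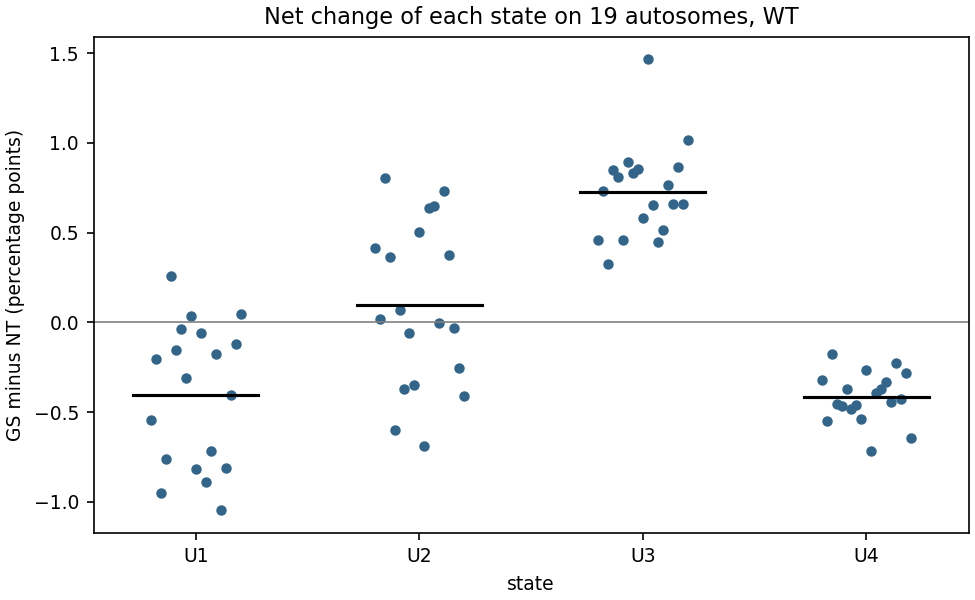
GS minus NT share of each state in percentage points (vertical axis) for the 19 autosomes (points, in chromosome order within a state), with the mean over chromosomes as a line. All 19 points of U3 lie above 0 and all 19 of U4 below, while those of U2 lie on both sides.

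States differed in how much of their sequence kept the label. Of the NT bins of U1, 94.9% were U1 in GS, against 82.2% for U2, 81.9% for U3 and 53.6% for U4. U4 bins of NT that had another state in GS were mostly U3 (34.6% of all NT U4 bins), then U2 (9.90%) and U1 (1.92%). Retention went with segment length: 41.2% of the bins of single-bin U4 segments were U4 again in GS, 54.7% of those in segments of 400 bp and 64.8% of those in segments of 1 kb or more. Even in the longest class 32.1% of bins had become U3. Looked at from GS, 66.6% of U4 bins had been U4 in NT, and 81.2% of those in segments of 1 kb or more. This was a larger share than in the other direction in each length class. The bins that were U4 in both are the same from either side. The larger share over all U4 bins is therefore set by the smaller U4 total of GS.

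The length of a changed run, a stretch with 1 state in NT and 1 other state in GS, depended on the states. There were 251231 such runs with a median of 200 bp, and 132870 of them were single bins, but those held only 11.2% of the changed sequence. Runs between U1 and U2 were long, with a median of 2400.0 bp from U1 to U2 and 2200.0 bp from U2 to U1, and runs of 5 kb or more made up 59.7 and 52.5% of their sequence. Runs between U2 and U3 had a median of 600 bp in both directions. Runs into or out of U4 had a median of 200 bp, and 95.5% of their sequence was in runs under 1 kb. All runs of 20 kb or more were between U1 and U2: 120 from U1 to U2 and 54 from U2 to U1.

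**Figure D3:**
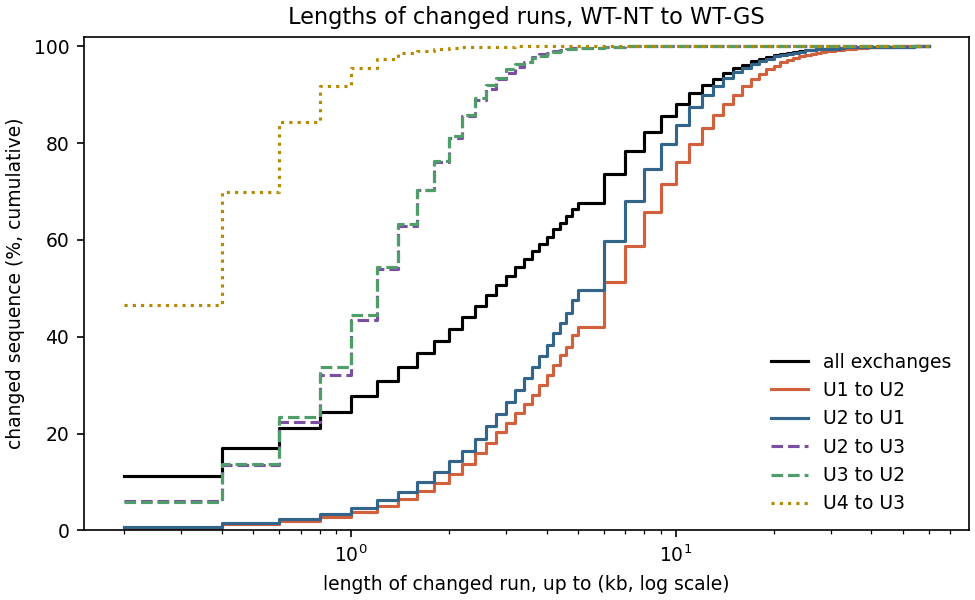
Cumulative share of changed sequence (%, vertical axis) in runs up to a given length (kb, log axis), for all exchanges and for 5 named ones. The curves of U1 to U2 and U2 to U1 lie far to the right of U4 to U3, whose longest run was 3200 bp.

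Changed sequence lay most often at borders, and less often in the interior of segments or over whole segments. Border shifts, in which 1 side had the old state in NT and the other side the new state in GS, made up 42.1% of changed sequence. Whether the old state remained on its side in GS was not part of the definition. New islands, with the old state on both sides in NT whatever those sides became in GS, made up 21.04%. Whole NT segments with the new state on both sides in GS made up 23.8%. The remaining 13.1% met none of these definitions. For U1 to U2 these shares were 44.8% border shifts (median run 1800.0 bp), 25.8% islands of U2 inside U1 (2600.0 bp) and 22.0% filled gaps of U1 between U2 (5000 bp). For U2 to U1 they were 45.0% border shifts, 20.6% new gaps inside U2 and 24.2% islands of U2 lost whole.

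U4 had another geometry. Of its sequence that became U3, 49.4% was whole U4 segments surrounded by U3 in GS, and 31.8% border shifts. Of the sequence that became U4 from U2, 60.7% was new islands inside U2. By the definitions, a U4 segment of a single bin cannot be a border shift into or out of U4. These shares therefore follow in part from the shortness of U4 segments. U2 to U3 was mixed, with 37.1% border shifts and 21.9% stretches of U2 filled between U3.

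Crossing between U1 and marked sequence was most frequent at the NT border of marked sequence and less frequent with distance on both sides. Just outside the border 42.7% of U1 bins were marked in GS, and just inside it 40.9% of marked bins were U1. At 5 to 10 kb the values were 8.07 and 10.2%, and beyond 50 kb 0.439 and 1.56%. Bins within 5 kb of a border were 14.99% of all U1 bins and 68.5% of those that became marked, and 28.2% of marked bins and 63.8% of those that became U1. The remainder lay deeper, and 20.7% of the marked sequence that became U1 lay over 10 kb from a border. Exchange among U2, U3 and U4 did not follow this gradient, at 8.26% of marked bins beside the border and 11.3% beyond 50 kb. These shares are of all marked NT bins, including the 40.9 and 1.56% that became U1. They do not give the order of the 2 ends among bins that stayed marked.

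**Figure D4:**
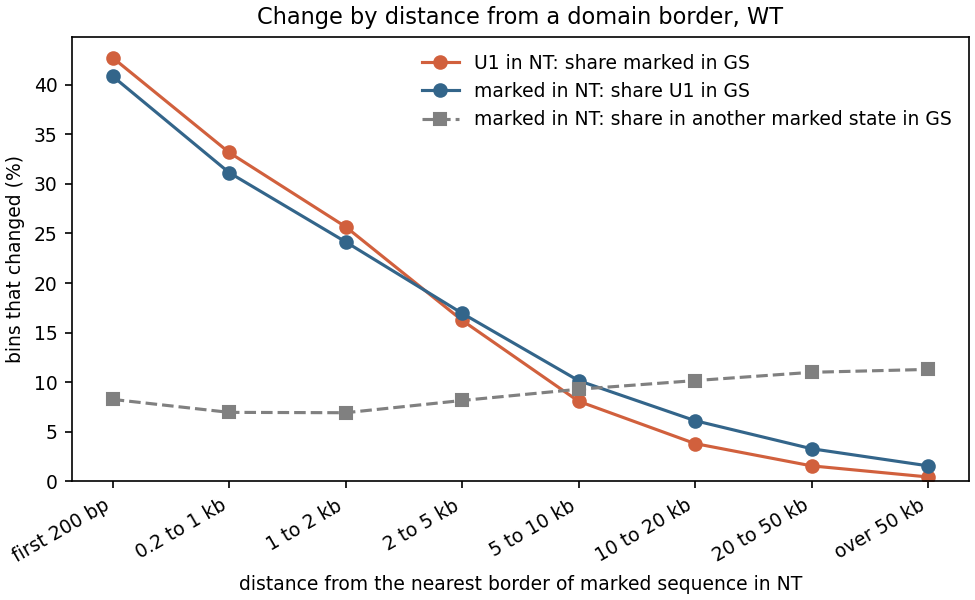
Share of WT bins with another state in GS (%, vertical axis) by distance from the nearest NT border between U1 and marked sequence (horizontal axis, classes of unequal width). Crossing between U1 and marked sequence goes from 42.7 and 40.9% at the border to 0.439 and 1.56% beyond 50 kb, while exchange among marked states (grey) lies between 6.92 and 11.3%.

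Broad marked domains were mostly found again, and the small ones accounted for most losses. Marked sequence joined over gaps of up to 1 kb gave 14792 domains of 10 kb or more in NT and 15242 in GS, covering 693 and 697 Mb. In NT 1568 of them (10.6%) overlapped no such domain in GS, and 1758 GS domains (11.5%) overlapped none in NT. Of the 5341 NT domains of 10 to 20 kb, 25.2% had no GS counterpart, against 3.93% at 20 to 50 kb, 0.283% at 50 to 100 kb, 0 of 1168 at 100 to 200 kb and 0 of 383 above that. The minimum of 10 kb favours this order, since a small domain can drop out by shrinking a little, while any overlap keeps a large one. The median share still marked in GS was 91.5% for domains of 10 to 20 kb and 99.25% for those of 200 kb or more. Marked sequence was seldom gone altogether, since 176 of the 5341 domains of 10 to 20 kb had no marked bin left in GS. In all 1713 NT domains were split among several GS domains and 1537 GS domains joined several of NT. Among the 8828 domains with 1 counterpart on each side, 51.2% of edges lay within 1 kb of their NT position and 8.64% moved by more than 10 kb. Edges lay further out in 42.8% of cases, by a median of 1600.0 bp, and further in in 38.2%, by 1800.0 bp.

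Gains and losses of marked sequence cancelled more in larger windows than in small ones. Taking 100% as change in 1 direction only and 0% as full cancellation, the value was 93.1% in 10 kb windows, 59.6% in 100 kb, 32.4% in 1 Mb and 6.69% over whole chromosomes. In the KO pair it was 93.7, 68.0, 50.3 and 15.3%. By construction this value cannot rise as nested windows grow, and no reference with randomly placed changes was made.

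Of 24712 windows of 100 kb, 15.8% had a state whose share moved by 10 percentage points or more in WT, the size used here to call a window. U2 was higher in GS in 1701 (6.88%) and lower in 1522 (6.16%), with U1 lower in 6.94% and higher in 5.49%. U3 was higher in 465 windows (1.88%) and lower in 67 (0.271%). U4 was lower in 65 windows (0.263%), and the number with U4 higher was 0. Most called windows stood alone: 989 of 1268 stretches of U2 gain and 999 of 1222 of U2 loss were a single window.

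U2 gains and losses lay in different surroundings. Windows that gained U2 held less U3 and U4 than those that lost it. Measured in GS, when their U2 share was high (median 46.0%), U3 and U4 together had a median of 0.400%. Of these windows 38.9% held neither. A low content is common, since over all windows the GS medians were 0% for U3 and 0% for U4, at a median of 7.40% U2. Windows that lost U2, measured in NT with a similar U2 share (median 44.4%), had a median of 6.60% U3 and U4, and 10.6% held neither. Windows with at least 25% U2 in NT that were not called resembled those that lost U2, with a median of 6.20%, and 12.5% held neither. They were measured in NT, not in GS as the gains were. Single runs gave the same order, at a median of 10.0 kb from the nearest NT U3 or U4 for U1 to U2 and 1.80 kb for U2 to U1, or 7.20 and 4.80 kb measured in GS. In the KO pair the surroundings were the other way round, with a median of 10.6% U3 and U4 in windows that gained U2 and 0.400% in those that lost it.

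The 465 windows that gained U3 were rich in U3 from the start and, like U3 itself, lay most often in the distal part of the chromosomes. Of them 45.2% lay in the most distal of 3 equal parts of each chromosome after its initial 3 Mb, which holds 41.2% of NT U3. Their U3 share had a median of 37.4% in NT and 50.0% in GS. U4 was lower in GS in 444 of them, U2 in 424 and U1 in 182, with median changes of -4.20, -6.60 and 0 percentage points. These counts are partly set by the selection for U3, since other states had to fall, and U1 had a median of only 11.4% in NT. The same counts over all windows were not made. All 65 windows that lost U4 had more U3 in GS, by a median of 14.6 percentage points, where a fall of U4 has to be met by a rise of other states.

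On this grid of windows the largest difference in U2 was on chromosome 6 from 78200001 to 78300000, with 0.8% U2 in NT and 74.0% in GS. The order depends on the grid: in windows moved by 50 kb the larger of the overlapping values was 54.8 percentage points here, 70.6 at the chromosome 12 locus named next and -78.6 at that on chromosome 7. It holds a run of 39400 bp from 78222001 that was U1 throughout in NT and U2 throughout in GS. On chromosome 12 from 35100001 to 35200000 U2 went from 11 to 78.2%, and on chromosome 1 from 135600001 to 135700000 from 14.8 to 81.8%. These 3 windows held no U3 in either treatment and differed almost only by U1 turning into U2. In the KO pair the windows on chromosomes 12 (2.80 to 49.6%) and 1 (6.60 to 79.4%) went the same way, and the window on chromosome 6 the opposite way (40.4 to 10.2%).

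The largest losses of U2 were on chromosomes 14, 16 and 7. On chromosome 14 from 29100001 to 29200000 U2 went from 79.6 to 8.80%. On chromosome 16 the windows from 57300001 to 57500000 went from 61.8 to 0.400% and from 68.0 to 0%, which left 99.2 and 100% U1. This locus also held the longest changed run of the genome, 53200 bp of U2 from 57470201 to 57523400 that was U1 throughout in GS. KO cells also had less U2 in GS here, at 47.6 and 22.6% on chromosome 14, and at 48.8 and 0% and 46.6 and 12.6% in the windows of chromosome 16. Of the other 9 of the 10 longest runs, 8 were U1 to U2, of 36600 to 46600 bp, on chromosomes 4, 6, 8, 9, 12 (2 runs), 13 and 14, and 1 was a border shift of 42400 bp from U2 to U1 on chromosome 2 from 8910401.

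**Figure D5:**
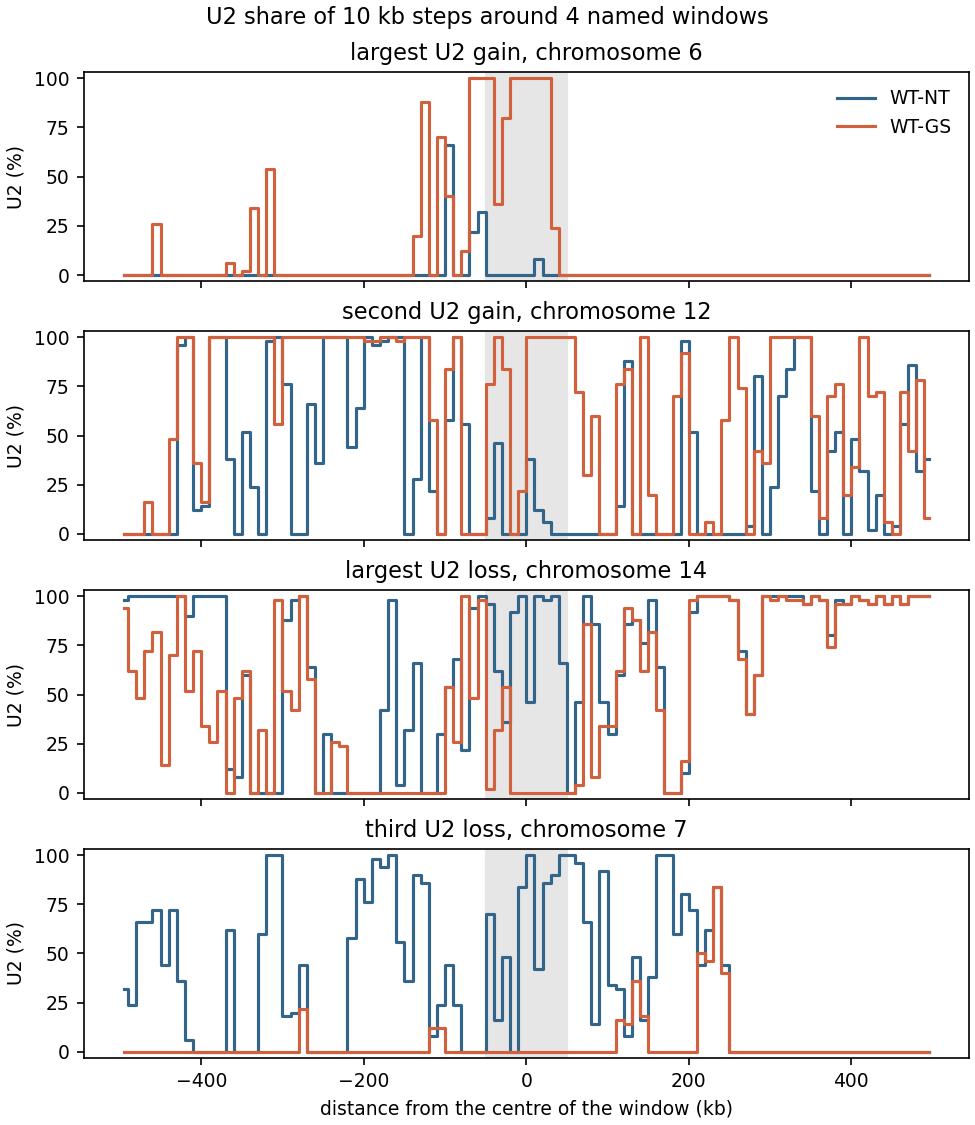
Share of U2 (%, vertical axis) in steps of 10 kb around the centre of 4 of the named 100 kb windows (shaded), for WT-NT and WT-GS, by distance from the centre (kb). U2 appears in the chromosome 6 and 12 windows in GS and is at 8.80% over the chromosome 14 window, while on chromosome 7 it is low in GS from the left edge of the plot to well beyond the window.

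On chromosome 7 the loss ran over 8 neighbouring windows from 103300001 to 104100000, in which U2 went from 48.4 to 6.63% and U1 from 27.6 to 64.2%. U3 went from 18.3 to 27.9% over the same stretch and U4 from 5.65 to 1.325%, so U2 and U4 fell while U3 grew. In the window from 103800001 U2 went from 63.6 to 0%. KO values over the stretch went the same way from a lower start, with U2 at 34.4 and 16.7% and U3 at 17.7 and 26.9%. The longest stretch of loss, 9 windows on chromosome 18 from 38700001 to 39600000, was of a similar kind. There U2 went from 53.7 to 24.3%, U3 from 23.1 to 30.3% and U4 from 3.67 to 1.60%. A stretch on chromosome 3 from 34200001 to 34800000 lost U2 (54.9 to 28.8%) with little difference in U3 (18.7 and 19.9%).

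The longest stretches of U2 gain held almost no U3 or U4. On chromosome 10 from 15600001 to 16700000, 11 windows went from 41.7 to 66.1% U2 with 0% U3 and U4 in both treatments. On chromosome 13, 7 windows from 27300001 to 28000000 went from 30.1 to 55.1% and 8 windows from 28100001 to 28900000 from 36.9 to 60.0%. Single windows in the first of these differed by 11.6 to 48.6 percentage points, so the size was uneven along it. In KO the first chromosome 13 stretch went the other way, from 39.1 to 20% U2, and the chromosome 10 stretch also did, from 56.9 to 44.1%. The second chromosome 13 stretch was higher in GS in KO as well, at 35.4 and 41.95%.

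No annotation of mm9 was used, and no gene was assigned by a lookup of coordinates. The genes and regions named were placed from general knowledge only. As general background, not checked on these files, the stretch on chromosome 7 is where Tenm4 lies, a long gene for a transmembrane adhesion protein of the teneurin family, and RefSeq's GRCm38 table gives it a length of 739.9 kb. The stretch on chromosome 13 from 27300001 belongs to the cluster of prolactin family genes, hormones made mainly in placenta and pituitary, of which that table lists 26 protein-coding genes on the chromosome. The stretch on chromosome 3 is the surroundings of Sox2, a transcription factor of stem cells and neural progenitors and a known Polycomb target.

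The largest gains of U3 were exchanges within marked sequence. On chromosome 9 from 36900001 to 37000000 U3 went from 43.8 to 70.2%, while U4 went from 30.4 to 12.8% and U2 from 25.8 to 12.2%. On the same chromosome from 98500001 to 98600000 U3 went from 40.8 to 67.2% and U4 from 23.4 to 9.60%, with U1 at 16.6 and 17.0%. On chromosome 16 from 90500001 to 90600000, where U3 went from 32.0 to 57.0%, U1 also gave way, from 36.0 to 24.0%. The largest losses of U3 were smaller: 62.6 to 41.4% on chromosome 13 from 23900001, 48.6 to 27.6% on chromosome 13 from 72800001 and 49.2 to 29.0% on chromosome 7 from 82400001, each with more U1 and more U2 in GS.

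The windows that lost most U4 became U3 in almost equal measure. On chromosome 4 from 148200001 to 148300000 U4 went from 63.0 to 42.2% and U3 from 31.6 to 51.6%. On chromosome 12 from 111400001 to 111500000, by general knowledge part of the imprinted Dlk1-Dio3 region, U4 went from 43.2 to 22.8% and U3 from 37.6 to 61.0%. On chromosome 2 from 156400001 to 156500000 U4 went from 42.0 to 24.4%. The gains of U4 were at most 8.80 percentage points, from 16.2 to 25% on chromosome 6 from 72100001, then 6.80 points on chromosome 3 from 103400001 and 6.40 points on chromosome 16 from 30100001.

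The bins that exchanged U1 and U2 in WT had no common direction in KO. Of the 372009 bins that went from U1 to U2 in WT, 16.7% did so in KO as well, 18.8% went from U2 to U1, and 48.8% were U1 in both KO segmentations. Over all bins 3.41% went from U1 to U2 in KO and 2.97% from U2 to U1, so both directions were more frequent at the bins that changed in WT. Of the 319669 bins from U2 to U1, 16.3% went the same way in KO and 16.9% the opposite way. The shared bins were 14.7 and 14.2% of the respective KO exchanges. Among the 1701 windows that gained U2 in WT, 314 gained it in KO (18.5%, or 14.01% of KO gains) and 481 lost it (28.3%), beside 9.07% gains and 7.72% losses over all windows. Among the 1522 that lost U2 in WT, 363 lost it in KO (23.9%, or 19.02% of KO losses) and 338 gained it (22.2%).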

How the data were processed

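The authors deposited 1 segmentation per genotype and treatment, with a state label (U1 to U4) per segment rather than a signal, and 2 SIRT7 peak lists with a score per peak, of which only positions were used; the deposited score has no stated definition. The submitters' processing notes name deepTools 2.4.2, MACS 1.4.2, SAMtools 0.1.19, Bowtie, Trimmomatic 0.36 and FastQC 0.11.3, with builds mm9 and hg19, but no roles. Neither labels nor headers state the segmentation tool, its model, the meaning of the states or whether 1 model served all segmentations. Chromosome ends matched mm9.

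Python 3.11.15 with numpy 2.4.6 and pandas 2.3.3 compared states per 200 bp bin on chromosomes 1 to 19. Counting of runs and their positions was tested on simulated segmentations, in which the changes were isolated from each other. Named loci are, for each state, the 3 windows of 100 kb with the largest gain and the 3 with the largest loss, and the 10 longest changed runs; stretches of neighbouring windows with U2 moved by 10 percentage points or more, by number of windows, were added after the values were seen, as was the comparison of U3 and U4 content. The members, rules and lists were chosen with earlier results of these data known. Depth per library is unknown. No test was made. Genes were not assigned to loci by annotation, since the tables at hand are of build GRCm38, and the few named were placed from general knowledge.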

Additional observations from a re-analysis of the deposited data

Results flagged for a closer look

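The net changes of U3 and U4 had opposite signs in WT and KO. U4 was -0.413 percentage points in WT, lower on 19 of 19 chromosomes, and 0.843 in KO, higher on 19 of 19. U3 was 0.708 in WT, higher on 19 of 19, but in KO the value of -0.0614 was within its spread over chromosomes (SD 0.242, higher on 7 and lower on 12), so it had no common direction there. The difference between genotypes was not tested, since each value comes from 1 pair of segmentations. In NT U4 covered 2.12% in WT and 1.01% in KO, and in GS 1.71 and 1.85%.

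Among the named windows 4 went opposite ways in the genotypes by at least 10 percentage points in KO, also untested. U2 on chromosome 6 from 78200001 was 73.2 percentage points higher in GS in WT and -30.2 in KO. U3 on chromosome 13 from 72800001 was -21.0 in WT and 13.6 in KO. U4 on chromosome 4 from 148200001 was -20.8 in WT and 21.8 in KO, and on chromosome 2 from 156400001 it was -17.6 in WT and 19.6 in KO. Of the 65 windows that lost U4 in WT, 64 had more U4 in GS in KO, beside 40.7% of all windows. The 65 windows are rich in U4 (median 30.8% in WT-NT), and no set of like U4 content was compared.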

How the results depend on the processing

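No paired analysis was possible because replicates were pooled in the deposited segmentations. With bins of 1 kb the changed share was 9.24%, the net changes of U1 to U4 were -0.415, 0.0625, 0.663 and -0.311 percentage points, the median run was 1000 bp (the bin size), runs of 10 kb or more held 16.4% of changed sequence, and border shifts, new islands and absorbed segments 39.9, 21.7 and 22.2%. Short segments were joined by giving them the state of the preceding segment of 1 kb or more. With segments under 1 kb joined these values were 9.11%, -0.424, -0.0501 (a reversal for U2, cause not tested), 0.730 and -0.256 points, 1600.0 bp, 15.9%, and 47.1, 24.7 and 23.1%. Without the first 3 Mb the changed share was 9.83% and the net changes -0.416, 0.115, 0.724 and -0.423, since fewer U1 bins were counted. Without bins at state borders 7.11% changed. Leaving out each chromosome in turn gave 9.53 to 9.72%.

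With a joining gap of 5 kb, 9.42% of NT domains had no GS domain and 52.0% of edges lay within 1 kb. With a minimum of 5 kb 13.4% of GS domains had no NT domain and 53.4% of edges lay within 1 kb, and with 20 kb 50.4% did. With short segments joined, 17.3% of windows were called and 7.17% for loss of U2. In windows of 1 Mb 2.60% were called, 1.66% for gain and 0.650% for loss of U2. In larger windows opposite changes cancel and isolated changes are diluted, and these were not told apart. The 24 named results, from 19 distinct windows, kept their direction with short segments joined. That setting uses the same data and the same selected windows, so it adds no independent support. Windows moved by 50 kb (the larger of the overlapping values) and windows of 1 Mb contain part or all of the selected sequence, so their direction is largely set by the selection. In 1 Mb windows the sizes were much smaller, such as 10.4 for 73.2 (U2, chromosome 6), -2.22 for -21.2 (U3, chromosome 13 from 23900001) and 0.880 for 8.80 (U4, chromosome 6). The larger direction was kept in 5 of 6 pairs of states with 1 kb bins and in 4 of 6 with short segments joined. The flows between U1 and U3, nearly equal to begin with, turned in both settings, and with short segments joined U2 to U4 (0.0720% of bins) was below U4 to U2 (0.0769%). The unknown depth limits all values.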

Other observations

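Of the 2272 autosomal SIRT7 peaks in the authors' GS list, 147 had their midpoint in a bin whose state differed between WT-NT and WT-GS (6.47%, Wilson 95% interval 5.53 to 7.56%, counting error only), beside 9.60% of all bins. Of these, 76 lay in U1 to U2 (51.7%) and 43 in U2 to U1 (29.3%), beside 31.3 and 26.9% of all changed bins. Of all bins, 94.9% of NT U1 and 82.2% of NT U2 kept their state. Such shares therefore depend on the NT states in which the peaks lie, and bins of like NT state were not compared. Of the 58 autosomal peaks in the NT list, 4 did (6.90%, interval 2.71 to 16.4%). No test was made, since neighbouring bins are not independent.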
